A study of Mus musculus with 6 samples.

Results

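The genes described here encode enzymes and regulators that remove peroxides and keep protein thiols reduced: the glutathione, thioredoxin and peroxiredoxin systems, superoxide dismutases, catalase, heme oxygenases and the sensor that controls many of them. They were listed by name, as 38 mouse symbols, with earlier results of these data known. Of the 38, 37 had a row among the 13675 genes of the deposited table, and the expression of Gstm5 was not analysed here. All 37 reached the minimum mean for testing, which was 10 normalized counts.

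The cells were CD45.2 OT-I CD8+ T cells, which carry a transgenic receptor for an ovalbumin peptide. Both groups carried loxP-flanked alleles of Csnk2a1, the gene of CK2α, a catalytic subunit of the protein kinase CK2. The control group, labelled WT and CK2αfl/fl, had no Cre, and the other, labelled KO and CK2αfl/fldLck-Cre, also carried Cre under the distal Lck promoter, which acts in maturing T cells. Each kind of cell was transferred into its own CD45.1 B6 hosts, the hosts were infected with ovalbumin-expressing Listeria monocytogenes, and after 7 days CD45.2 CD8+ T cells were taken from the spleen, with 3 samples a group. The labels give no age of the mice and do not say if each sample is another animal. A p-value here therefore speaks of the spread among the samples sequenced, part or all of which could be technical. No group carried Cre without the floxed alleles.

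Hydrogen peroxide is a by-product of respiration and a signal of the activated T cell receptor, and cells break it down by a few parallel routes. Glutathione peroxidases use glutathione, which glutathione reductase restores, and peroxiredoxins use thioredoxin, which thioredoxin reductase restores, with NADPH as the source of electrons for both. The factor NRF2 (gene Nfe2l2) raises many of these genes when its inhibitor KEAP1 is modified by oxidants. In T cells, glutathione synthesis is known to be needed for growth after activation, and GPX4 to protect against lipid peroxidation and ferroptosis.

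Recovered reads ranged from 14746864 to 22931296 per library. Csnk2a1 measured 1645 to 1847 normalized counts in the control-labelled and 2786 to 2875 in the knockout-labelled libraries, higher where the label would have it deleted. The deleted exons are not stated, so this whole-gene value does not check the deletion, and directions are given for libraries as labelled. Markers of CD8+ T cells were abundant in every library (Cd8a 25233 to 31515 normalized counts) and Cd4 was low (11.9 to 21.0). The summed level of 13 B cell markers was 4326 to 4889 in the controls and 6787, 11089 and 10401 in knockout-labelled libraries 1, 2 and 3, and in knockout-labelled library 1 Cd22 and Ighm were raised and the other 11 near control levels. Of the 10 erythroid markers 6 were measured, with a sum of 482 to 597 in the controls and 531 to 602 in the others, most of it Tfrc, which activated T cells also express. Control-labelled library 2 stood apart from the other controls: it was the control nearest to the mean of the knockout-labelled libraries for 21 of the 37 genes (56.8%) and for 44% of all 13675. Over all genes it was closer to each knockout-labelled library than to either other control. Its chi-square for each degree of freedom was 15.9, 12.9 and 14.6 against knockout-labelled libraries 1, 2 and 3. Against controls 1 and 3 it was 19.1 and 18.6, and those 2 controls stood at 5.32 from each other.

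Of the redox defence genes measured, only Mgst2, the gene of a microsomal glutathione transferase, passed the test, and it fell 1.34-fold in the knockout-labelled libraries (limma, adjusted p = 0.0389), and the other 36 did not pass. The count of 1 in 37, or 2.7%, compares with 5.19% of the 13654 genes tested, of which 2.04% were called higher and 3.15% lower. At an unadjusted p below 0.05, 7 of the 37 were higher and 4 lower (29.7%, against 21.4% of all genes tested). The groups did not overlap for 9 of the 37 (24.3%), 3 higher and 6 lower, against 25.7% of all genes. The median log2 fold change was 0.02 over the 37 and 0.01 over all genes, and the median size of a change 0.13 and 0.16. Of the 37 genes, 28 had a 95% interval of the fold change that lay inside 1.5-fold in either direction, 14 had one inside 1.25-fold, and 36 had one inside 2-fold, the exception being Gstk1.

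**Figure D1:**
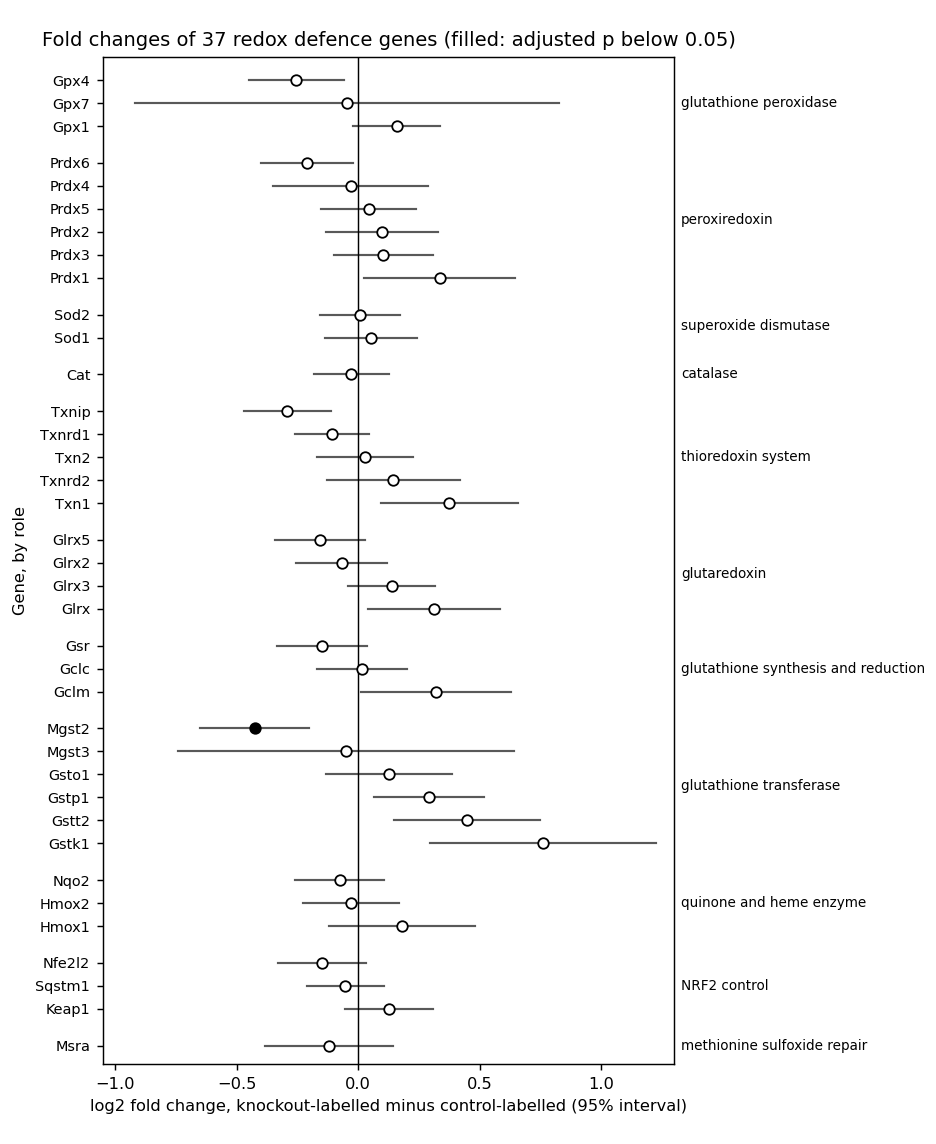
log2 fold change of each of the 37 genes, knockout-labelled minus control-labelled libraries (horizontal axis), with its 95% interval, grouped by role (vertical axis). The filled point is Mgst2, at -0.43, the gene that passed the test, and the widest intervals are those of Gpx7 and Mgst3, the lowest expressed of the set.

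Other ways of fitting the same libraries called more of the genes, and more of all genes with them. Without control-labelled library 2, limma called 9 of the 37 (24.3%, against 14.9% of all genes): Txn1, Prdx1, Glrx, Gclm, Gstt2 and Gstk1 higher, and Txnip, Gpx4 and Mgst2 lower. This library was the control nearest to the knockout-labelled mean for 21 of the 37 genes. The cause of the added calls was not tested. With weights that let libraries count unequally, 10 were called (27%, against 19.6%), the same 9 and Prdx6, lower. DESeq2 on the recovered reads called 4 (10.8%, against 7.49%), Txn1 and Gstt2 higher and Txnip and Mgst2 lower, and edgeR called Mgst2. Where 1 of the other 5 libraries was left out, limma called none of the 37, against 1.47% to 3.24% of all genes. In those runs 5 to 7 of the 37 were at an unadjusted p below 0.05, and 1901 to 2542 of the 13545 to 13616 genes tested. Adding the mean log2 level of the 13 B cell markers as a covariate left none called either, against 0.659% of all genes. The marker sum was highest in knockout-labelled libraries 2 and 3 (11089 and 10401), so this fit cannot fully separate marker level from group. In that fit 6 of the 37 were at an unadjusted p below 0.05, and 2387 of all 13654 genes tested. The log2 fold change of Mgst2 was -0.44 with the covariate and -0.43 without it.

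**Figure D2:**
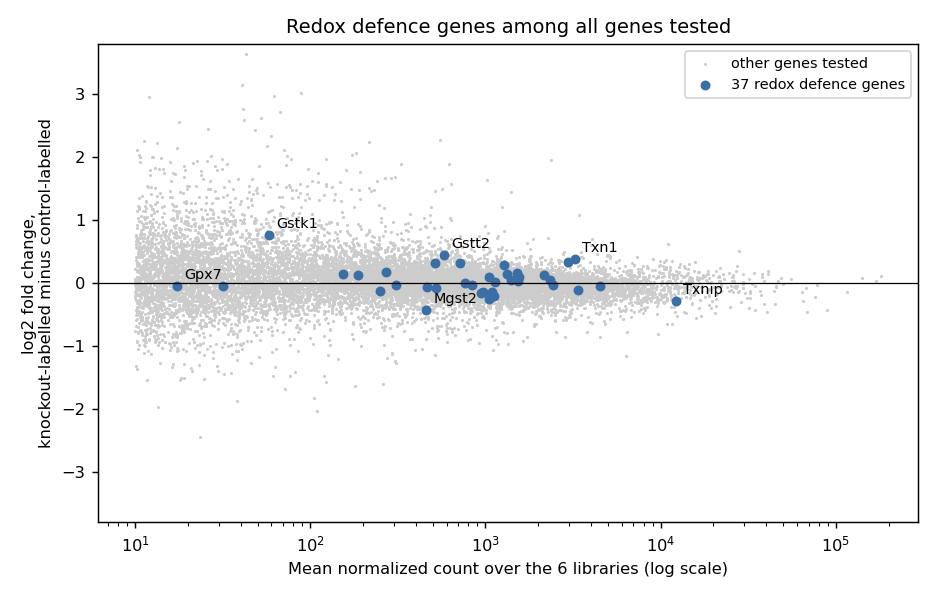
log2 fold change (vertical axis) against the mean normalized count over the 6 libraries (horizontal, log scale) for the 37 redox defence genes in blue and the other genes tested in grey. The 37 lie between -0.43 and 0.76 within the grey cloud, which reaches from -2.45 to 3.64.

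The level of each gene was put on a scale of normalized counts per kilobase of merged exons, so that genes can be compared with one another. This scale counts every annotated exon, and so understates genes with long exons that the cells do not use. Txnip stood first in the controls at 4295 ± 232 per kilobase (SD, n = 3), Txn1 next at 2700.2 ± 513 and Sqstm1 after it at 1361 ± 75.6, with ranges over the controls that did not overlap. Below them came a run of genes whose ranges each overlapped the next: Gpx1 (997 ± 76.7), Cat (936 ± 54.5), Prdx1 (867 ± 168), Gstp1 (740.1 ± 42.4), Prdx3 (683 ± 68.7), Gpx4 (659.9 ± 49.4) and Prdx5 (640.4 ± 14.4), and on through Sod1, Prdx2, Txnrd1, Keap1, Gsr and Hmox2 to Txn2 (360.3 ± 23.6). At the foot were Txnrd2 (33.1 ± 1.4), Mgst3 (30.1 ± 11), Gstk1 (29.2 ± 4.82) and Gpx7 (14 ± 6.71). In the knockout-labelled libraries Txnip (3511 ± 263) and Txn1 (3477 ± 396) lay within each other's spread.

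**Figure D3:**
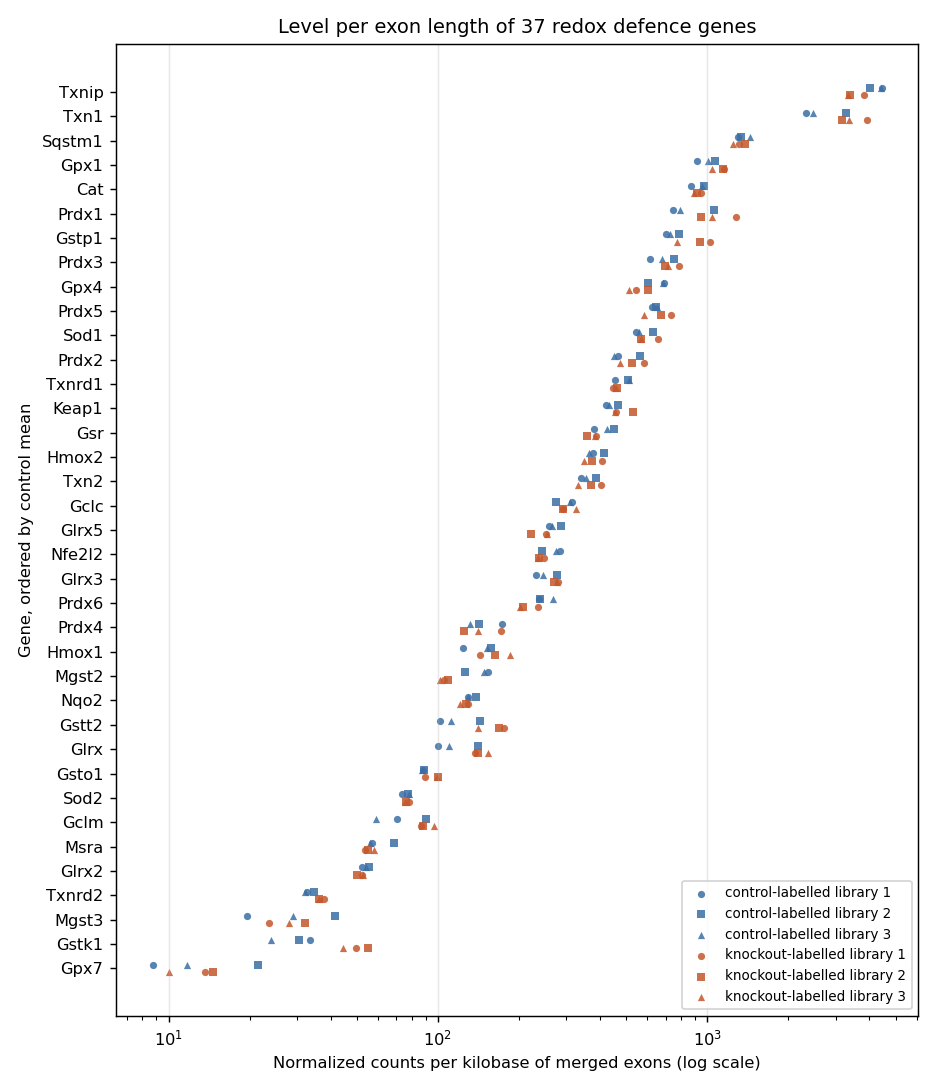
Normalized counts per kilobase of merged exons (horizontal, log scale) of the 37 genes, ordered by the control mean, with 1 point per library (blue, control-labelled; orange, knockout-labelled). Levels run from 4295 for Txnip to 14 for Gpx7 in the controls, and for most genes the points of the groups lie among each other.

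The controllers of the oxidant response did not pass the test. Nfe2l2, the gene of NRF2, had normalized counts of 1078, 921 and 1039 in the controls, in the order of their numbers, against 944, 902 and 889.8. All 3 knockout-labelled values lay below controls 1 and 3, and control 2 lay among them (log2 fold change -0.15, 95% interval -0.33 to 0.03, limma adjusted p = 0.339). Keap1, whose product binds NRF2 and directs it to degradation, measured 1974, 2194 and 2033 against 2148, 2493 and 2134 (0.13, -0.06 to 0.31, limma adjusted p = 0.419), with knockout-labelled library 2 the highest. Sqstm1, which encodes p62, an autophagy receptor that can draw KEAP1 away from NRF2, measured 4356, 4497 and 4849 against 4411, 4631 and 4175 (-0.05, -0.21 to 0.11), so its groups overlapped.

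NRF2 binds the antioxidant response element, whose core is TGACNNNGC. The core was searched for on both strands of the promoters that RefSeq gives on GRCm38.p6, 250 bases before to 50 after each start site. The table holds 44 promoters for 32 of the 38 genes, and 6 of them (13.6%) contain the core, against 12.4% of all 32851 promoters of this length and 14.4% of those of genes in the expression table. The genes are Prdx1, Sod1, Txnrd1, Gclm, Nfe2l2 and Gstm5. No promoter of this length was held for Prdx6, Gclc, Gsr, Gstt2, Hmox1 or Msra, so these were not searched. A match is a description of the letters and not a site of binding. The promoters of the 5 measured genes with the core are printed first, with the core in capitals, because they are the members whose start regions hold the letters NRF2 is known for.

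Prdx1 (chr4:116685349-116685648, plus strand): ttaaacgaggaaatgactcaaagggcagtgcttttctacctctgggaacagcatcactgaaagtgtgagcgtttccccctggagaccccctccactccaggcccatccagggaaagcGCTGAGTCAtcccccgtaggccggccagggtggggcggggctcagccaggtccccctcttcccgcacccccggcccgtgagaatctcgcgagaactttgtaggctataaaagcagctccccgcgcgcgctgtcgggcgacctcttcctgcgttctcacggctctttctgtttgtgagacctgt

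Txnrd1, the second of its 3 promoters (chr10:82858956-82859255, plus strand): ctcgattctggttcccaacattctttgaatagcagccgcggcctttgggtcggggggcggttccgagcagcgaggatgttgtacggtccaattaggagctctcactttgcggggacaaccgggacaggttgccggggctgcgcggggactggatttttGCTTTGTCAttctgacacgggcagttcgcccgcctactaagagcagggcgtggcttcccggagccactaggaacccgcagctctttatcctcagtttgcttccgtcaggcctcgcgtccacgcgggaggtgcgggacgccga

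Gclm (chr3:122245307-122245606, plus strand): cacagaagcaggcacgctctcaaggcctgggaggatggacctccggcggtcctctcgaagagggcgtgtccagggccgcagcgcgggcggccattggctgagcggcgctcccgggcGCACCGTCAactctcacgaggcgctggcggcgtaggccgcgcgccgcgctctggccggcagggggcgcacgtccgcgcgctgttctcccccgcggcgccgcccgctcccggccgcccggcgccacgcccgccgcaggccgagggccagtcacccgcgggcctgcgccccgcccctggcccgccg

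Nfe2l2 (chr2:75704614-75704913, minus strand): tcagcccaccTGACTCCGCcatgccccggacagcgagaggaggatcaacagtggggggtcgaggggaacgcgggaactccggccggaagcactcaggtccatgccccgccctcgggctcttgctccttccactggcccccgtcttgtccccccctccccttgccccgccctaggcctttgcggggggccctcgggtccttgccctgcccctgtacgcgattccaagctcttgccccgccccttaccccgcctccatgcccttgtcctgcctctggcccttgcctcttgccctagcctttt

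Sod1 (chr16:90220512-90220811, plus strand): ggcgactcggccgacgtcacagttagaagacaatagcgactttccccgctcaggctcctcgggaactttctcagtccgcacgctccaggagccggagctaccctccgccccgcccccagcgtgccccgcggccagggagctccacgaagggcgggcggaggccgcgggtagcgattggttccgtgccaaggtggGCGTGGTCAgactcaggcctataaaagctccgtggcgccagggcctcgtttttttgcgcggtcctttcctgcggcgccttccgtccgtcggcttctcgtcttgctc

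In Nfe2l2 the core reads forward, and in the other 4 it lies on the opposite strand, so that the capitals show its reverse complement. It starts 133 bases before the start site in Prdx1, 134 in Gclm, 92 in Txnrd1, 56 in Sod1 and 240 in Nfe2l2. The Prdx1 core, TGACTCAGC on its own strand, also holds the AP-1 core TGACTCA, which the other 4 do not. Their fold changes were not of 1 kind: on the log2 scale Prdx1 was at 0.34, Gclm at 0.32, Sod1 at 0.05, Txnrd1 at -0.11 and Nfe2l2 at -0.15, and none of the 5 passed (limma; edgeR and DESeq2 called none of them either, and 2, Prdx1 and Gclm, were at an unadjusted p below 0.05). The next promoters, those of the called gene Mgst2 and of the thioredoxin gene Txn1, do not hold the core in this window.

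Mgst2 (chr3:51660929-51661228, plus strand): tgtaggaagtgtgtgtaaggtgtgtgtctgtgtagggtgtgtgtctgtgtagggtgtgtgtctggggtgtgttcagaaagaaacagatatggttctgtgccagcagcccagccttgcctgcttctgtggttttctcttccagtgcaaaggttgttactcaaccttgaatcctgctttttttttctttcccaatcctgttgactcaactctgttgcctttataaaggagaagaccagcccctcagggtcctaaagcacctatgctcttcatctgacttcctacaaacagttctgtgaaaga

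Txn1 (chr4:57956362-57956661, minus strand): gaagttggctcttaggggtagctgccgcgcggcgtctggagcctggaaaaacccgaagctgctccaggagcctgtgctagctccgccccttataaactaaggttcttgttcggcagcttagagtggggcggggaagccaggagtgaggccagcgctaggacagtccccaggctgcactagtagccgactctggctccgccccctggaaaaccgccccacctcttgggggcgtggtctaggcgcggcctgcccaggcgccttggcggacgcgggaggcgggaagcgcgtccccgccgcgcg

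Among the 3 glutathione peroxidases, Gpx4 was lower and Gpx1 higher in the knockout-labelled libraries, and neither passed. Gpx4 encodes the enzyme that reduces lipid hydroperoxides within membranes. It measured 1189, 1039 and 1185 normalized counts against 939.7, 1037 and 885. The groups did not overlap, but control-labelled library 2 and knockout-labelled library 2 were nearly equal (log2 fold change -0.25, SE 0.09, limma adjusted p = 0.131). Without control-labelled library 2 it was -0.32 (limma adjusted p = 0.028). With another library left out, the limma adjusted p of Gpx4 reached 0.391. Gpx1, the main cytosolic peroxidase of hydrogen peroxide, measured 1317, 1536 and 1456 against 1665, 1646 and 1496, with control 2 above knockout-labelled library 3 (0.16, 95% interval -0.02 to 0.34, limma adjusted p = 0.294). Gpx7, an enzyme of the endoplasmic reticulum, was near the floor of the table at 11.2 to 27.8 and 12.9 to 18.9, too low for its interval (-0.92 to 0.83) to exclude a change of 1.5-fold.

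The 6 peroxiredoxins did not pass, and 4 of the 6 had intervals that lay inside 1.5-fold and included 0. Prdx1, the most abundant of the family, a cytosolic thioredoxin-dependent peroxidase, measured 2276, 3222 and 2414 normalized counts in the controls and 3894, 2893 and 3159 in the knockout-labelled libraries. Control-labelled library 2 lay above knockout-labelled libraries 2 and 3, so the groups overlapped (log2 fold change 0.34, SE 0.14, limma adjusted p = 0.197). Without that library the value was 0.49 (limma adjusted p = 0.00978), and with another library left out the limma adjusted p reached 0.481. Prdx6, which also has phospholipase activity and takes its electrons from glutathione, went the other way: 1142, 1152 and 1285 against 1128, 996 and 973, without overlap (-0.21, SE 0.09, limma adjusted p = 0.188). Prdx2, the other cytosolic enzyme, was at 0.10 (95% interval -0.13 to 0.33), the mitochondrial Prdx3 at 0.10 (-0.10 to 0.31), Prdx5, found in mitochondria, peroxisomes and cytosol, at 0.04 (-0.15 to 0.24), and Prdx4, of the secretory pathway, at -0.03 (-0.35 to 0.29).

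Neither the superoxide dismutases nor catalase passed (limma, edgeR and DESeq2, and 0 of the 3 at an unadjusted p below 0.05). Sod2, the mitochondrial manganese enzyme, measured 734, 776 and 784 normalized counts against 785, 765 and 754, a log2 fold change of 0.01 (95% interval -0.16 to 0.17). Cat, the peroxisomal catalase, measured 2283, 2552 and 2498 against 2471, 2385 and 2331 (-0.03, -0.18 to 0.13). The cytosolic copper and zinc enzyme Sod1 measured 2152, 2498 and 2212 against 2609.5, 2255 and 2257 (0.05, -0.14 to 0.24). In all 3 the groups overlapped, and their intervals were among the narrow ones of the set, all inside 1.5-fold.

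None of the 5 thioredoxin genes passed (limma and edgeR). At an unadjusted p below 0.05 were 2 of the 5 (limma, 40%, against 21.4% of all genes tested), Txnip lower and Txn1 higher, which DESeq2 called. Txnip, the most abundant of the 37, encodes a protein that binds reduced thioredoxin and also lowers glucose uptake, and it lies on chromosome 3 at 96557957 to 96561883 of GRCm38. Its normalized counts were 13909, 12582 and 13746 against 11907, 10599.9 and 10389. Every knockout-labelled value lay below every control (1.22-fold lower, log2 fold change -0.29, SE 0.08, limma adjusted p = 0.0664), and DESeq2 called it lower (adjusted p = 0.00749). Txn1, the cytosolic thioredoxin itself, on chromosome 4 at 57943373 to 57956411, measured 2455, 3455 and 2604 against 4120.0, 3316 and 3528. Control-labelled library 2 lay inside the knockout-labelled range and the other controls below it (1.3-fold, 0.38, SE 0.13, limma adjusted p = 0.123). Without that control the difference was 0.53 (limma adjusted p = 0.00263), and with another library left out the limma adjusted p reached 0.358. DESeq2 on all 6 libraries called Txn1 higher (adjusted p = 0.039). Txnrd1, the cytosolic reductase that recharges thioredoxin, was at -0.11 (95% interval -0.26 to 0.04), the mitochondrial Txn2 at 0.03 (-0.17 to 0.23) and its reductase Txnrd2 at 0.15 (-0.13 to 0.42).

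**Figure D4:**
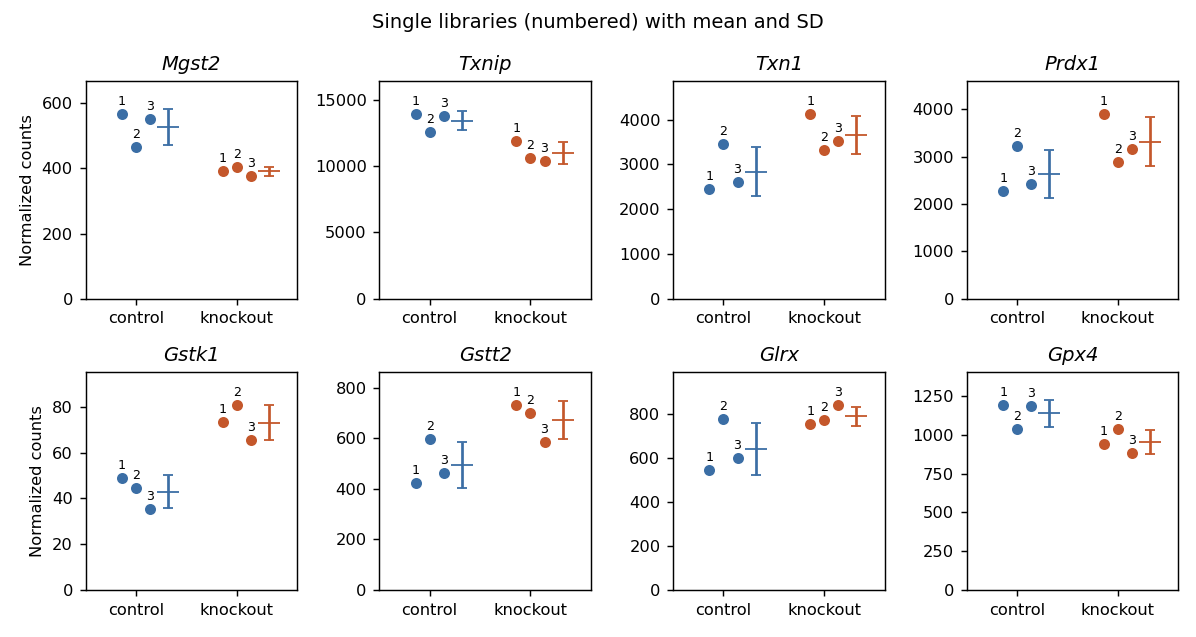
Normalized counts (vertical axis, from 0) of 8 genes in each numbered library, control-labelled in blue and knockout-labelled in orange, with mean and SD beside the points. Control 2 sits with the orange points for Txn1, Prdx1 and Glrx, and the groups stand apart for Mgst2, Txnip, Gstk1 and, narrowly, Gpx4.

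Set against each other per kilobase, Txnip exceeded Txn1 by 1.91, 1.23 and 1.78 times in the controls and was level with it in the knockout-labelled libraries (ratios 0.973, 1.08 and 0.991). The mean ratio was 1.64 ± 0.362 and 1.01 ± 0.055 (SD, n = 3 each). An exact two-sided permutation test gave p = 0.1, the smallest that 3 against 3 can give, and 0.175 after adjustment over the 7 ratios computed. These ratios between partner genes were chosen after their values were seen. Txnrd1 per Txn1 was 0.185 ± 0.0276 and 0.132 ± 0.0163, Gpx4 per Gpx1 0.667 ± 0.0951 and 0.498 ± 0.0277, and Txn1 per Txn2 7.45 ± 0.913 and 9.47 ± 0.85, each without overlap and each with the same exact p. The ratio of KEAP1 to NRF2 transcripts, 1.66 ± 0.233 and 2.00 ± 0.205, overlapped between groups (exact permutation p = 0.2), as did Prdx1 per Prdx3 (1.26 ± 0.126 and 1.48 ± 0.13, the same p).

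**Figure D5:**
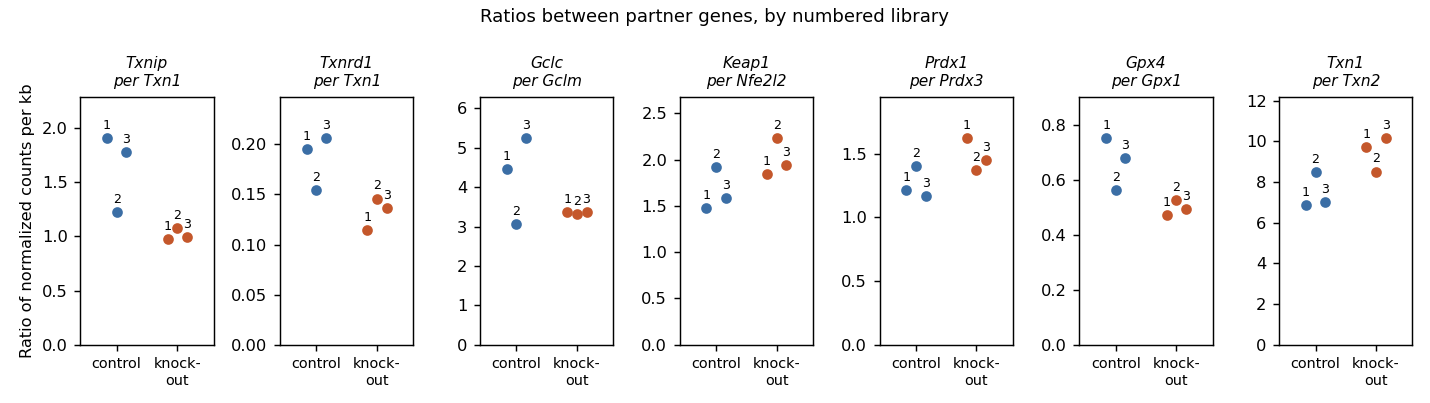
Ratio of normalized counts per kilobase between 7 pairs of partner genes (vertical axes, each from 0) in each numbered library, control-labelled in blue and knockout-labelled in orange. The Txnip to Txn1 ratio is near 1 in the 3 knockout-labelled libraries and 1.23 to 1.91 in the controls, with control 2 the lowest of them.

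Glutaredoxins reduce protein-glutathione disulfides or carry iron-sulfur clusters. Glrx, the cytosolic dithiol enzyme, measured 548, 777 and 603 normalized counts against 757, 775 and 841. Control-labelled library 2 again lay within the knockout-labelled range and the others below it (log2 fold change 0.31, SE 0.12, limma adjusted p = 0.174). Without that library the value was 0.46 (limma adjusted p = 0.00555), and with another left out the limma adjusted p reached 0.44. Glrx3, a monothiol protein of cytosolic iron trafficking, measured 1165, 1387 and 1227 against 1399, 1357 and 1391 (0.14, 95% interval -0.04 to 0.32). Glrx5, which serves iron-sulfur cluster assembly in mitochondria, was lower without overlap, at 952, 1053 and 974 against 924, 817 and 936 (-0.16, -0.34 to 0.03, limma adjusted p = 0.324). Glrx2, the mitochondrial dithiol enzyme, was at -0.07 (-0.25 to 0.12).

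Glutathione is made by glutamate-cysteine ligase, the limiting enzyme, and kept reduced by glutathione reductase. Gclc, the catalytic subunit, measured 1185, 1036 and 1169 normalized counts against 1101, 1100.3 and 1225 (log2 fold change 0.02, 95% interval -0.17 to 0.20). Gclm, the modifier subunit, measured 444, 566 and 372 against 545, 552 and 607, with control-labelled library 2 inside the knockout-labelled range (0.32, SE 0.14, limma adjusted p = 0.214). Without that library the value was 0.48 (limma adjusted p = 0.0101), and with another left out the limma adjusted p reached 0.602. A transcript of Gclm shares 287 bases at 97.9% identity with Ppia, an abundant gene, and Ppia itself measured 10313, 13000.4 and 10805 against 13344, 12753 and 12803 normalized counts. A stretch of 244 bases, which may overlap the first, is identical to Gm10123, a processed pseudogene. Gm10123 measured 624, 777 and 672 against 880.3, 788 and 902. How reads of these stretches were assigned is not stated. Gsr, the reductase, measured 1043, 1239.5 and 1168 against 1062, 988 and 1055, with overlap (-0.15, 95% interval -0.33 to 0.04). Gclc exceeded Gclm 4.26 ± 1.11 times per kilobase in the controls and 3.36 ± 0.0252 times in the knockout-labelled libraries (SD, n = 3 each; exact permutation p = 0.4).

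The glutathione transferases held the gene that passed and the largest changes of the set, in both directions. Mgst2, on chromosome 3 at 51660360 to 51682677, encodes a membrane enzyme that conjugates glutathione and can make leukotriene C4. Its normalized counts were 566, 465 and 551 against 391, 405 and 378. All 3 knockout-labelled values lay below the lowest control (528 ± 54.6 against 391 ± 13.3, SD, n = 3; log2 fold change -0.43, SE 0.10). The gene stayed past the threshold in 1 of the 6 runs that left out a library, that without control-labelled library 2 (limma adjusted p = 0.00366), and the adjusted p reached 0.172 without control-labelled library 3. It was called by edgeR (adjusted p = 0.0433) and DESeq2 (0.0163).

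Gstk1, a transferase of mitochondria and peroxisomes, had the largest fold change of the 37 at a low level: 49.1, 44.6 and 35.2 normalized counts against 73.2, 80.7 and 65.5, without overlap (1.7-fold, log2 fold change 0.76, SE 0.21, limma adjusted p = 0.065). Gstt2, a theta-class enzyme, measured 423, 598 and 463 against 730.2, 699.5 and 586 (1.37-fold, 0.45, SE 0.14, limma adjusted p = 0.0895). Its groups overlapped because control-labelled library 2 lay just above knockout-labelled library 3. Gstp1, the pi-class enzyme, measured 1089.5, 1218 and 1129.7 against 1581, 1452 and 1200.2 (0.29, SE 0.10, limma adjusted p = 0.134). It shares 707 bases at 98.2% identity with Gstp2, so the authors' counting could have split or dropped its reads. Gsto1, which reduces mixed disulfides, was at 0.13 (95% interval -0.13 to 0.39) with values of 177 to 179 and 181 to 203. Mgst3 was low and unresolved at 21.5 to 45.6 and 25.9 to 35.3 (-0.05, -0.74 to 0.64).

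The remaining enzymes did not pass, and their intervals included 0. Hmox1, the inducible heme oxygenase and a classical NRF2 target that macrophages express strongly, measured 218, 275 and 266 normalized counts against 251, 285 and 324 (log2 fold change 0.18, 95% interval -0.12 to 0.48, limma adjusted p = 0.489). The summed level of 9 measured macrophage and monocyte markers of 10 listed was 1379 to 1670 in the controls and 1645 to 1774 in the knockout-labelled libraries, with overlap. Of the 9, Cd68 rose, from 418, 589 and 479 to 647, 906 and 697 (1.51-fold, limma adjusted p = 0.0486), and the other 8 overlapped between groups. Their part in the Hmox1 level was not tested. Hmox2, the constitutive enzyme, was at -0.03 (-0.23 to 0.17). Nqo2, a quinone reductase, measured 522, 560.3 and 525 against 521, 514 and 489 (-0.08, -0.26 to 0.11). Msra, which repairs oxidised methionine, was at -0.12 (-0.38 to 0.14).

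Genes of the same pathways that are not among the 38 were read from 6 lists of 144 symbols, of which 118 were tested. There, 4 rose and 4 fell (limma, 6.78%, against 5.19% of all genes). EdgeR called 3 and 3 (5.08%, against 4.72%), and DESeq2 5 and 6 (9.32%, against 7.49%). Among genes of superoxide production and oxidant repair, 2 of 22 rose and 1 fell (13.6%, against the same 5.19%). Ncf1, which encodes p47phox, the organiser of the phagocyte NADPH oxidase, rose from 204, 326 and 369 to 647, 709.6 and 672 normalized counts (2.32-fold, log2 fold change 1.21, SE 0.18, limma adjusted p = 0.00616). B cells and neutrophils also express it. Of 8 neutrophil markers 4 were measured, with a summed level of 89.9 to 230.5 in the controls and 212 to 295 in the others, and S100a9 measured 46, 68.4 and 111 against 119, 140 and 157 without overlap (1.94-fold, limma adjusted p = 0.0829). The part of neutrophil transcripts in these values was not tested. Its catalytic partner Cybb measured 83.8, 71.4 and 81.3 against 88, 146 and 165, highest in libraries 2 and 3, and did not pass (limma adjusted p = 0.111).

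Aifm2, the gene of FSP1, which reduces ubiquinone and protects membranes from lipid peroxidation beside GPX4, rose from 50.1, 61.5 and 53.6 to 117, 124 and 104 normalized counts (2.07-fold, log2 fold change 1.05, SE 0.17, limma adjusted p = 0.00821). Sirt3, a mitochondrial deacetylase whose targets include SOD2, fell from 299, 276 and 295 to 181, 216 and 205 (1.45-fold lower, limma adjusted p = 0.0265). Ncf1 and Aifm2, and Ephx1 of the next list, kept their call whichever library was dropped (6 of 6). Adding the mean log2 level of the B cell markers as a covariate left none of the 118 called, against 0.659% of all genes (limma). Marker level and group are partly confounded, so this fit cannot fully separate them. In that fit 24 of the 118 were at an unadjusted p below 0.05, and 2387 of all 13654 genes tested. The log2 fold changes there were 1.22 for Ncf1, 1.09 for Aifm2 and -0.60 for Ephx1, against 1.21, 1.05 and -0.74 without it (limma adjusted p = 0.0927, 0.0959 and 0.124). Sirt3 passed in 1 of the 6 runs that left out a library, that without control-labelled library 2 (limma adjusted p up to 0.123 in the others).

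Of 28 NRF2 partners and classical targets, 2 fell and none rose (limma, 7.14%, against 5.19% of all genes tested). At an unadjusted p below 0.05, 4 were higher and 5 lower (limma, 32.1%, against 21.4% of all genes tested). Called lower were 2 by edgeR and 3 by DESeq2, against 4.72% and 7.49% of all genes called in either direction, and neither tool called any higher. Ephx1, microsomal epoxide hydrolase, fell from 274, 273 and 278 to 181, 168 and 147 normalized counts (1.67-fold lower, log2 fold change -0.74, SE 0.12, limma adjusted p = 0.00792). Nfe2, a relative of NRF2 best known in megakaryocytes and erythroid cells, fell from 54.2, 39.7 and 36.9 to 13.9, 16.4 and 16.9 (2.64-fold lower, limma adjusted p = 0.0185). It passed in 1 of the 6 runs that left out a library (limma adjusted p up to 0.0732). Of 5 platelet and megakaryocyte markers 2 were measured, Pf4 and Itga2b, with a summed level of 42.6 to 78.8 in the controls and 18.5 to 60.5 in the others. Itga2b was lower without overlap, at 47, 29.7 and 48.6 against 12.05, 27.7 and 22.8 (2.02-fold lower, limma adjusted p = 0.131), and Pf4 was at a log2 fold change of -0.04. Their part in the Nfe2 level was not tested. Cbr1, a carbonyl reductase, and Trp53inp1, a stress protein of autophagy, did not pass (log2 fold changes -0.25 and -0.28, limma adjusted p = 0.108 and 0.0712).

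Of 11 genes of glutathione synthesis, export and breakdown, 1 rose (9.09%, against 5.19% of all genes tested). Ggt1, which begins the breakdown of extracellular glutathione at the cell surface, measured 300.5, 671 and 351 normalized counts against 904, 703 and 899.7. Control-labelled library 2 lay close under the knockout-labelled libraries (log2 fold change 1.00, SE 0.25, limma adjusted p = 0.0452). The gene passed in 1 of the 6 runs that left out a library (limma adjusted p up to 0.177). Ggt1 was not called by edgeR (adjusted p = 0.0646), by DESeq2 (0.114) or after quantile normalization (0.0526). Gss, glutathione synthetase, measured 700.1, 437 and 697 against 389, 393 and 405, without overlap and again with control 2 nearest the knockout-labelled libraries (-0.59, SE 0.16, limma adjusted p = 0.0648). Lap3, a peptidase that can split cysteinylglycine, was at 0.50 (SE 0.13, limma adjusted p = 0.0567). DESeq2 called Gss lower (adjusted p = 0.00356) and Lap3 higher (0.0235), and edgeR called neither (0.0609 and 0.0606).

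Among 21 other thioredoxin-fold, arrestin-domain and sulfiredoxin genes, 1 rose (4.76%, against 5.19% of all genes tested). Arrdc4, an arrestin-domain relative of Txnip that shares its control by glucose-sensing factors, measured 27.6, 39.7 and 29.3 normalized counts against 78.8, 59.2 and 58.5 (2.01-fold, log2 fold change 1.01, SE 0.24, limma adjusted p = 0.0388). Arrdc4 passed in 1 of the 6 runs that left out a library (limma adjusted p up to 0.149), and not after quantile normalization (0.0849). Its direction was the opposite of that of Txnip. Srxn1, sulfiredoxin, which restores overoxidised peroxiredoxins, measured 26.6, 36.7 and 46.1 against 67.6, 65.5 and 60.5, without overlap (1.79-fold, 0.84, SE 0.24, limma adjusted p = 0.0769). Srxn1 lies on chromosome 2 at 152105516 to 152111376, 0.116 megabases from the targeted Csnk2a1, and Gss lies 3.28 megabases from it. Txndc5, a disulfide isomerase of the endoplasmic reticulum, was at -0.23 (limma adjusted p = 0.0975).

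Of 20 selenoproteins and factors of their synthesis, 1 fell (5%, against 5.19% of all genes tested). Selenop, a secreted selenium carrier, measured 1129, 1206 and 1166 normalized counts against 1004, 935 and 928 (1.22-fold lower, log2 fold change -0.29, SE 0.07, limma adjusted p = 0.0492). It passed in 1 of the 6 runs that left out a library (limma adjusted p up to 0.181). It was not called with TMM factors (adjusted p = 0.0565), after quantile normalization (0.056) or by edgeR (0.0532), and DESeq2 called it (0.0361). Selenon, of the endoplasmic reticulum, and Trnau1ap, which serves selenocysteine insertion, did not pass (-0.47 and 0.22, limma adjusted p = 0.113 and 0.196). Of 16 other glutathione peroxidases and transferases tested, none passed (limma, against 5.19% of all genes tested). At an unadjusted p below 0.05 there were 3 (18.8%, against 21.4% of all genes). EdgeR called 0 and DESeq2 1, against 4.72% and 7.49% of all genes. Gpx8, of the endoplasmic reticulum, measured 125, 105 and 173 against 193, 204 and 199 (0.59, limma adjusted p = 0.0894), and Gstp3 541, 691 and 444 against 789, 851 and 739 (0.53, limma adjusted p = 0.0621).

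Several of the 37 have near-copies in the genome: 16 share at least 200 bases at 95% identity or more with a transcript of another gene, and for 10 of them such a gene is in the table. Besides Gclm and Gstp1, these include Gpx4 (Gpx4-ps2, at 43.6 to 71.5 normalized counts), Sod2 (Rps6ka2), and Prdx1, Txn1, Sod1 and Glrx3, whose near-copies are processed pseudogenes with no row in the table used here. Nqo2, Prdx5, Hmox2 and Sqstm1 share exon sequence with a gene that overlaps them, and Mgst2 overlaps Gm37261. As it is not given how shared or antisense reads were counted, levels of these genes are uncertain to that extent. In bulk RNA, fewer cells with a transcript and less of it per cell cannot be told apart.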

How the data were processed

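RNA sequencing of 6 samples was analysed from 1 deposited table. Its values are of the kind called a signal here: gene counts that the authors had divided by 1 factor per sample, as the values themselves show. Each is a whole multiple of its column's step (100% whole to within 0.01, against 1.43% to 1.73% before division), which gave back the reads. Per the submitters' processing notes the build is mm10. Aligner, counting program and strand use: not given in the sources used here. Of 13675 gene IDs, 13653 matched GENCODE M21 (GRCm38). Every pair of libraries differed by more than sampling noise, the closest with a chi-square of 5.32 for each degree of freedom.

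Groups were compared with limma 3.58.1 in R 4.3.3, with a variance trend and two-sided tests, after taking log2 of each normalized count with 1 added. The 13654 genes with a mean of at least 10 were tested. A call needs a Benjamini-Hochberg adjusted p, over all these genes, below 0.05. Each adjusted p is from limma unless another tool is named, and adding 1 makes the fold changes of low genes too small. The members and lists were chosen with earlier results of these data known. All members are described, and of the other lists each gene that passed and up to 2 per list that did not, those with the smallest p, except 1 gene that is not reported here. On the recovered reads edgeR 4.0.16 called 645 genes and DESeq2 1.42.0 called 1023. Near-copies were found with BLAST 2.17.0. The limma step was tested on simulated data. Protein sequences were planned but not used here.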

Additional observations from a re-analysis of the deposited data

How the results depend on the processing

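Mgst2 remained the 1 member called with a pseudocount of 0.5 or 5, without the filter, with a filter at 50, and with TMM, quantile or edgeR scaling. DESeq2 called 4 of the 37 and array weights 10. None was called without a variance trend, with the B cell covariate or with the replicate block (limma). In these fits 5, 6 and 8 of the 37 were at an unadjusted p below 0.05, and 2528, 2387 and 2226 of all 13654 genes. Without both knockout-labelled libraries 2 and 3, the log2 fold change of Mgst2 was -0.43. Over all genes the count of 708 became 141 without a trend, 2676 with array weights, 90 with the covariate and 0 without both libraries (limma; 1861 at an unadjusted p below 0.05), a fit in which the lone knockout-labelled library is assumed to vary like the controls. Among the other pathway genes the 8 calls became 5 with quantile scaling, 3 without a trend, 23 with array weights, and 0 with the covariate or without both libraries. With 1 library left out the ranges were 200 to 2028 for all genes, 0 to 9 for the members and 3 to 19 for the other pathway genes, each highest without control-labelled library 2. Deviations of same-numbered libraries from their group means had correlations of -0.544, -0.27 and -0.235. As deviations from a mean of 3 sum to 0, these values cannot decide if the numbers pair the libraries. With the number as a replicate block 197 genes, 0 members and 2 other pathway genes were called. The cause of these shifts was not tested. Log2 fold changes that turned sign belonged to 12 members, none of them called: with array weights Gpx7 0.049, Prdx5 -0.010, Sod2 -0.012 and Mgst3 0.041, with quantile scaling Cat 0.0187 and Sqstm1 0.028, without both libraries Gpx7 0.062, Prdx4 0.22, Cat 0.017, Gclc -0.035, Hmox1 -0.00148 and Hmox2 0.089, and with the covariate Gpx7 0.11, Prdx4 0.19, Cat 0.028, Gclc -0.040 and Hmox2 0.088. With 1 library left out they ran from -0.32 to 0.30 for Gpx7, -0.15 to 0.079 for Prdx4, -0.032 to 0.13 for Prdx5, -0.017 to 0.12 for Sod1, -0.023 to 0.025 for Sod2, -0.076 to 0.0039 for Cat, -0.042 to 0.10 for Txn2, -0.045 to 0.051 for Gclc, -0.32 to 0.21 for Mgst3 and -0.088 to 0.026 for Hmox2. Of the 37, Gpx7, Mgst3 and Gstk1 are the ones whose low counts most limit precision.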
